A study of Homo sapiens with 4 samples.

Results

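The genes of glucose uptake, glycolysis, lactate metabolism and pyruvate entry into mitochondria were examined in KYSE410, a long-established line of human squamous carcinoma cells from the esophagus, grown in serum-containing medium and either left untreated or given 20 nM YM155 for 6 h. The compound was introduced as an inhibitor of the expression of survivin, a protein that blocks apoptosis. Total RNA was measured on 4 Affymetrix 3' expression arrays, 2 per group, all from the same cell line. The list held 33 genes, chosen for their place in the pathway, and each was represented by every probe set, a group of oligonucleotide probes read as a unit, that the platform annotation gives to that gene alone. In this way 31 of the 33 genes were found, with 76 of the 54675 probe sets in the table. SLC16A1 and SLC16A3, which encode lactate transporters, were not analysed here. B1 and B2 stand in the titles of the YM155 arrays without an explanation, and no such mark stands in those of the untreated arrays, so no comparison within such marks could be made. Nothing in the labels says that the arrays of a group came from separate cultures, so the spread between them may be technical. The protocol text for treatment mentions cisplatin in place of YM155; the per-sample treatment labels and the title were followed, which give YM155.

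Glycolysis splits glucose into pyruvate and yields ATP without oxygen. Glucose enters through facilitative transporters, is trapped by hexokinase, and passes the main control step at phosphofructokinase, whose strongest activator is made and removed by the bifunctional PFKFB enzymes. Pyruvate is then either reduced to lactate by lactate dehydrogenase and exported, or carried into mitochondria and oxidised by the pyruvate dehydrogenase complex, which PDK kinases switch off and PDP phosphatases switch on. Many squamous carcinomas keep a high rate of glycolysis in the presence of oxygen, and many genes of the pathway are targets of HIF, the transcription factor of the low-oxygen response, and of MYC.

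The 2 YM155 arrays lay closer together than the 2 untreated arrays, at 56 against 1690 of 32768 probe sets at least 2-fold apart. From untreated replicate 1 to the YM155 arrays the number was 739 and 850, fewer than to untreated replicate 2, and untreated replicate 2 stood apart from all 3 other arrays, at 1811 and 2140 from the YM155 arrays. Of 10 squamous epithelium markers, 7 had a probe set and all 7 lay above the limit of 3.32 log2 used for dim signals, led by SFN, an epithelial adaptor protein. The log2 of their summed intensity was 13.56 and 13.73 in untreated arrays and 14.07 and 14.14 in YM155 arrays, and its part in the results below was not tested. The same sum ran from 7.32 to 7.44 in the untreated and from 7.27 to 7.43 in YM155 arrays for 8 fibroblast markers, of which 4 lay above the limit. It ran from 5.54 to 5.61 and from 5.60 to 5.63 for 5 leukocyte markers, of which 2 did, and PTPRC, the pan-leukocyte marker CD45, lay below it at 2.09. For 6 endothelial markers, 3 of them above the limit, it ran from 6.43 to 6.57 and from 6.49 to 6.53, and for 7 glandular epithelium markers, also with 3 above, it ran from 6.35 to 6.42 and was 6.39 on both YM155 arrays. In bulk RNA, fewer cells of a type and less of a transcript per cell cannot be told apart. The log2 excess of the 3' over the 5' ACTB control probe set, a sign of RNA integrity and labelling, was 2.72 and 2.18 in the untreated and 2.10 and 2.95 in YM155 arrays, so each group held a lower and a higher array. The same excess for GAPDH was 0.04 and 0.04 in the untreated arrays, 0.03 in YM155 replicate 1 and 0.21 in YM155 replicate 2, which stood apart, and its part in the results was not tested.

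No member differed between YM155 and untreated beyond the threshold. Of the 31 genes, 30 had a probe set above the limit and entered the comparison, each through its brightest probe set. By limma with Benjamini-Hochberg adjustment over 14043 genes, 0 of the 30 passed an adjusted p of 0.05 upward and 0 downward, as for all genes tested (0% in either direction). At an unadjusted limma p under 0.05, 1 member was higher (PFKFB3) and 3 were lower (PFKM, PFKFB4 and PDP1), against 5.23% of all genes higher and 7.48% lower. Both YM155 arrays lay above both untreated arrays for 3 members (SLC2A1, HK2 and PFKFB3) and below them for 12, against 19.3% and 25.6% of all genes. Any margin counted, in the members as in all genes. The 12 included PDK1, GAPDH and MPC2, for which the nearest YM155 and untreated arrays were almost level. The log2 differences (YM155 minus untreated) of the 30 members had a median of −0.15 and ran from −1.25 to 0.88, with 21 negative and 9 positive. Over all genes tested the median was −0.02, with 52.9% negative. In the plot of differences, most intervals span 0.

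**Figure D1:**
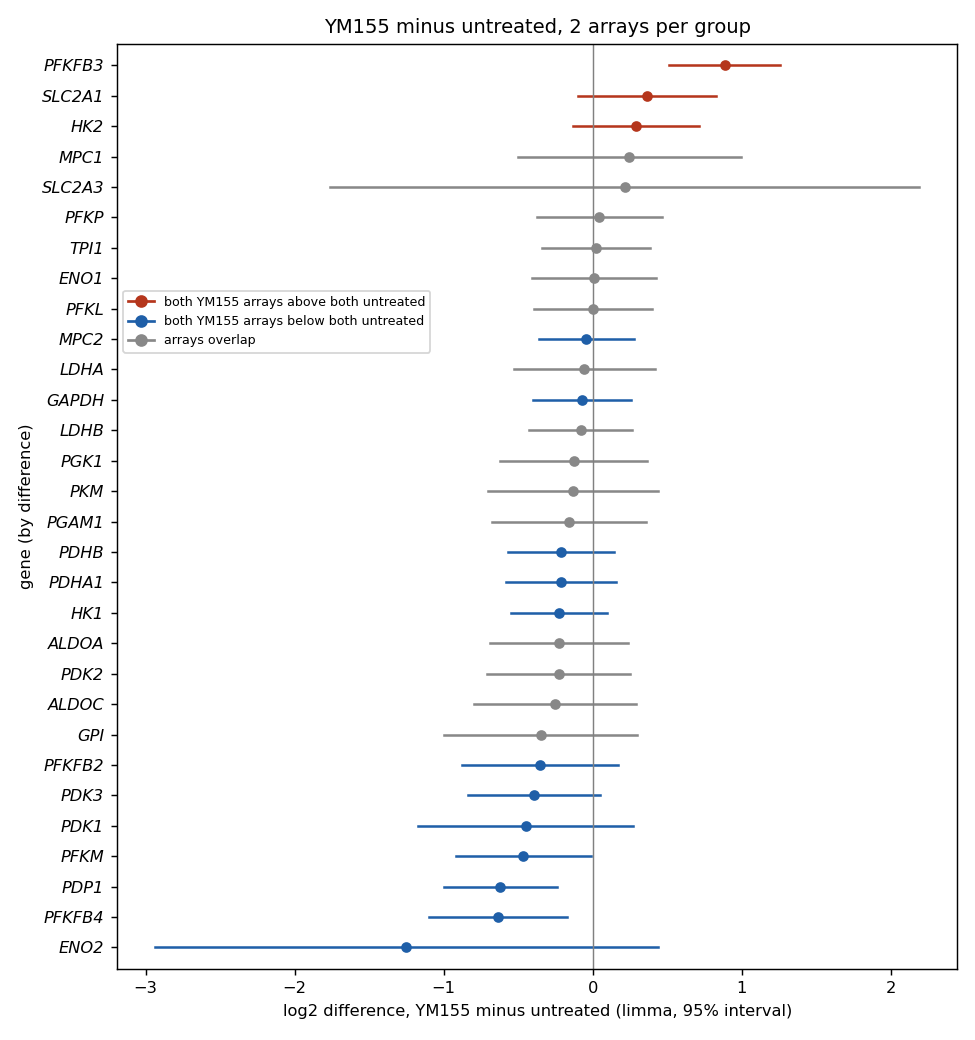
Each point is the log2 difference of a gene (horizontal axis, YM155 minus untreated, 2 arrays per group) from the limma fit, and each line its 95% confidence interval; genes are ordered by difference on the vertical axis and coloured by whether the arrays of the groups overlap. PFKFB3 stands at 0.88 on the right, ENO2 at −1.25 on the left with the widest interval of the negative genes, and the intervals of PFKFB3, PDP1, PFKFB4 and PFKM lie to one side of 0 before adjustment.

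Among the PFKFB enzymes, which set the level of the sugar bisphosphate that activates phosphofructokinase, PFKFB3 and PFKFB4 stood on opposite sides. PFKFB3, whose product strongly favours making the activator, read 8.40 and 8.49 log2 in untreated arrays and 9.22 and 9.43 in YM155 arrays. Both YM155 arrays were well above both untreated arrays, and the untreated arrays were close together. The difference was 0.88 ± 0.14 log2 (SE), or 1.85-fold, with a 95% confidence interval of 0.51 to 1.26 and a limma adjusted p of 0.185. It was 0.93 against untreated replicate 1 and 0.84 against replicate 2. PFKFB3 was the only 1 of the 30 members at least 0.5 log2 above each untreated array, a share near the 2.39% of all genes. This distance was chosen after the values were seen. Over the 4 left-out arrays the PFKFB3 difference ran from 0.78 to 0.99. PFKFB3 rests on a single probe set.

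PFKFB4, the testis and hypoxia-associated isozyme, read 6.36 and 6.70 in untreated arrays and 5.80 and 5.98 in YM155 arrays. The groups did not overlap, and the YM155 arrays were the lower ones. The difference was −0.64 ± 0.18 log2 (SE; 95% interval −1.10 to −0.18; limma adjusted p = 0.289), at −0.46 against untreated replicate 1 and −0.81 against replicate 2. Its dimmer probe set gave −0.23, with overlapping arrays at 3.85 and 4.17 in the untreated and 4.05 and 3.52 in YM155. PFKFB2, the isozyme named for heart, read 6.42 and 6.90 in the untreated and 6.31 and 6.30 in YM155 arrays in its brightest probe set (−0.35 ± 0.20 SE; limma adjusted p = 0.544). Its further probe sets went both ways: the second brightest gave 0.18, the dimmest −0.31, and the remaining probe set 0.91, reading 3.20 and 2.87 in the untreated and 4.09 and 3.81 in YM155 arrays. The untreated readings of that probe set lie below the limit for dim signals, so the size of that difference is not exact. It was kept only through its YM155 readings, so no direction is drawn from it. The dimmest probe set also lay near the limit, at a mean of 3.37. The mean over the 4 probe sets of PFKFB2, these included, gave 0.11. The brightest and second brightest probe sets differed in sign, the second with overlapping arrays.

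The promoters of PFKFB3 and PFKFB4 are shown because these isozyme genes stood apart in opposite directions. They come from RefSeq (GRCh38.p14), 250 bases before to 50 bases after each start, and 29 of the 33 members matched the table, with 59 promoters in all. Capitals mark the cores of the hypoxia response element that HIF binds, ACGTG and GCGTG, searched on both strands; CACGTG, an E-box that MYC can bind, holds ACGTG on both strands and so counts 2 matches. The upstream PFKFB3 promoter (chr10:6144671-6144970, plus strand) has a GCGTG match on the minus strand, the downstream promoter (chr10:6202682-6202981, plus strand) a CACGTG, and the PFKFB4 promoter (chr3:48556754-48557053, minus strand) a GCGTG.
PFKFB3 upstream: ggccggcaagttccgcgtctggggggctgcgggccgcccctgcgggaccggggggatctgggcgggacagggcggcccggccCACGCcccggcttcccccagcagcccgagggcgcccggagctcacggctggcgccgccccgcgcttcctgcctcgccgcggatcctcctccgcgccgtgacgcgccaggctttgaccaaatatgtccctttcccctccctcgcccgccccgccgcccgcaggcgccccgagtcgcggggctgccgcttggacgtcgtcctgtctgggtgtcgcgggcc
PFKFB3 downstream: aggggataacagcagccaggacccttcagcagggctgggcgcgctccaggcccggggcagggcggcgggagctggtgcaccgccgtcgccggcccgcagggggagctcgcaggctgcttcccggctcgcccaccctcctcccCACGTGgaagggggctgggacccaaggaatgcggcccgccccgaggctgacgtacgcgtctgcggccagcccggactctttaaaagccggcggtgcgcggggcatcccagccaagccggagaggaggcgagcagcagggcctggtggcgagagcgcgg
PFKFB4: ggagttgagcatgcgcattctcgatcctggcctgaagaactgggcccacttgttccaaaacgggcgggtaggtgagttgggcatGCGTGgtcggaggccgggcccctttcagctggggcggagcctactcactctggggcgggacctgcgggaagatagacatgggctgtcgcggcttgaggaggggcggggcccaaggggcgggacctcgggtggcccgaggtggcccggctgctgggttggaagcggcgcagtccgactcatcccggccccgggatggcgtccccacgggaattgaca
ACGTG was found in 35.6% of member promoters and in 21.4% of all 35116 promoters, and GCGTG in 44.1% and 36.5%. These matches are a description of the letters in the window.

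Of the transporters, SLC2A1 encodes GLUT1, the widespread glucose transporter, and read 8.85 and 8.46 in the untreated and 8.99 and 9.04 in YM155 arrays. Both YM155 arrays lay above both untreated arrays, by a small margin over untreated replicate 1. The difference was 0.36 ± 0.18 log2 (SE; limma adjusted p = 0.491), and its dimmer probe set gave 0.61, reading 4.17 and 4.50 in the untreated and 4.92 and 4.96 in YM155 arrays. SLC2A3, which encodes the high-affinity glucose transporter GLUT3, read 6.80 in untreated replicate 1, 9.07 in untreated replicate 2, and 8.05 and 8.24 in the YM155 arrays. The YM155 arrays therefore lay between the untreated arrays, with differences of 1.35 against replicate 1 and −0.92 against replicate 2. All 3 SLC2A3 probe sets had this order, and they differed in the sign of the mean difference: 0.21 ± 0.75 log2 (SE; limma adjusted p = 0.947) in the brightest and −0.34 and −0.35 in the others. SLC2A3 shares most of its sequence with SLC2A14, and 2 probe sets annotated to both were not used.

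The hexokinases trap glucose as its phosphate. HK2, the isozyme typical of tumours, read 9.09 and 9.42 in the untreated and 9.53 and 9.56 in YM155 arrays (0.29 ± 0.16 SE; limma adjusted p = 0.536), and HK1, the common isozyme, read 9.79 and 9.84 in the untreated and 9.60 and 9.57 in YM155 arrays (−0.22 ± 0.12 SE; limma adjusted p = 0.532). The arrays of the groups did not overlap for either gene, with HK2 on the higher and HK1 on the lower side. Dimmer HK2 probe sets read 6.52 and 4.76, and 5.46 and 3.78, in untreated replicates 1 and 2, and between 5.16 and 6.12 in the YM155 arrays. They were thus lower in untreated replicate 2, where the brightest HK2 probe set was higher, and gave differences of 0.43 and 0.56. GPI, which converts glucose phosphate to fructose phosphate, read 10.50 and 11.11 in the untreated and 10.59 and 10.32 in YM155 arrays (−0.35 ± 0.25 SE).

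Phosphofructokinase, the committed step, is built from 3 subunit types, and only PFKM had arrays without overlap. PFKM, the muscle subunit, read 9.0 and 9.27 in untreated arrays and 8.80 and 8.54 in YM155 arrays, with no overlap. Its difference was −0.47 ± 0.17 log2 (SE; 95% interval −0.92 to −0.01; limma adjusted p = 0.378). PFKL, the liver subunit, read 7.11 and 6.92 in the untreated and 7.12 and 6.91 in YM155 arrays, and PFKP, the platelet subunit, 11.30 and 10.99 in the untreated and 11.23 and 11.14 in YM155 arrays. For both the groups overlapped, with 95% intervals of the difference from −0.40 to 0.40 for PFKL and from −0.37 to 0.46 for PFKP. A dimmer PFKL probe set gave −0.13, also with overlap.

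**Figure D2:**
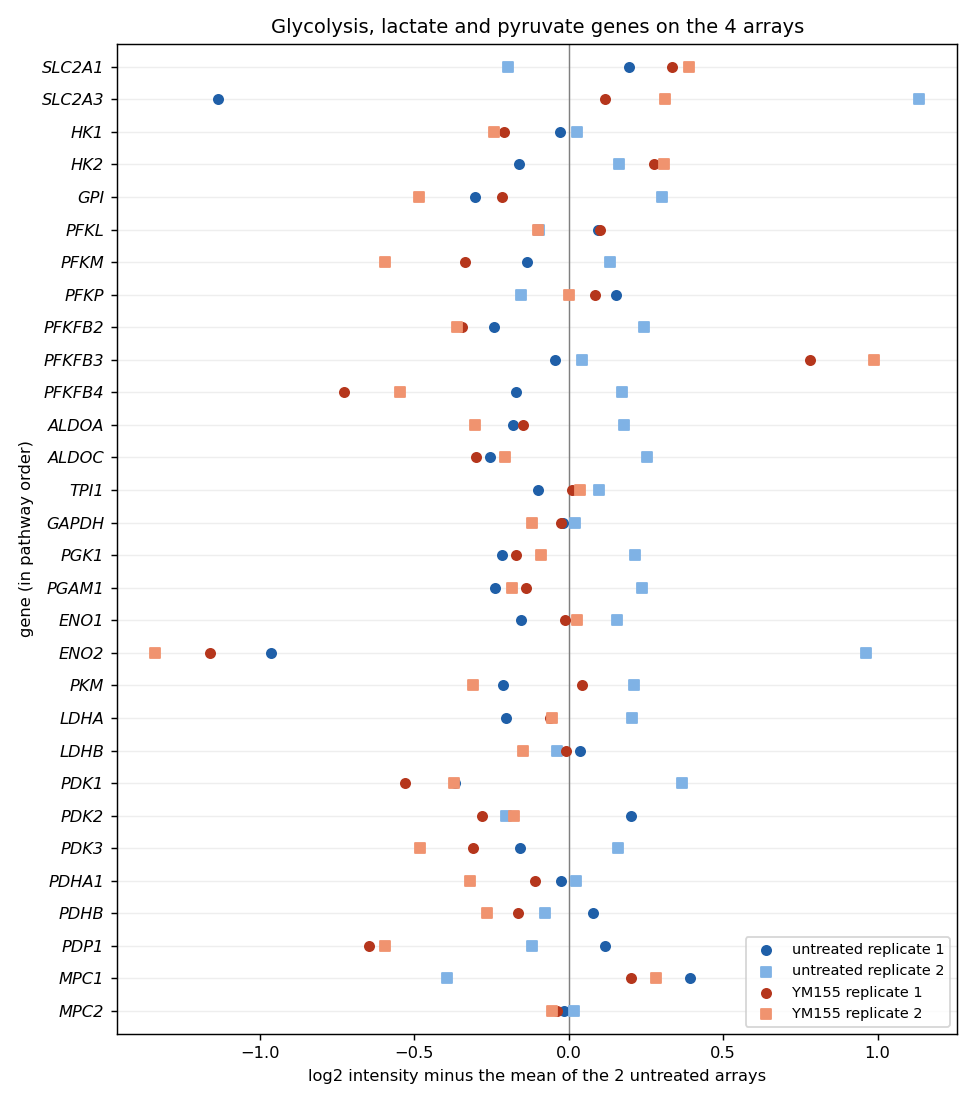
Points give each array's log2 intensity minus the mean of the 2 untreated arrays (horizontal axis) for the 30 genes tested, in pathway order from transporters to pyruvate carriers (vertical axis); blue marks untreated and red YM155 arrays. For SLC2A3 and ENO2 the untreated arrays lie 2.27 and 1.93 log2 apart, while for PFKFB3 and PDP1 both YM155 arrays stand away from both untreated arrays.

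In their brightest probe sets, the abundant enzymes of the lower pathway had differences between the groups within a narrow range. Dimmer probe sets of these enzymes above the limit spread further, from −0.59 (PKM) to 0.30 (ENO1, with a signal near the limit). By the brightest, TPI1, GAPDH, PGK1, PGAM1, ENO1 and PKM, which carry triose phosphate through to pyruvate, had differences from −0.16 (PGAM1) to 0.02 (TPI1). The untreated arrays themselves lay further apart, with replicate 2 higher by 0.43 for PGK1, 0.47 for PGAM1 and 0.43 for PKM. The 95% interval of the difference was −0.68 to 0.36 for PGAM1 and −0.70 to 0.44 for PKM, so unchanged levels are not shown. ALDOA, the aldolase that makes triose phosphates, stood at −0.23 ± 0.18 (SE). GAPDH read 13.50 and 13.54 in the untreated and 13.49 and 13.40 in YM155 arrays, the smallest spread between untreated arrays in this stretch of the pathway. The GAPDH difference was −0.07, with a 95% interval from −0.40 to 0.26. The 3 GAPDH control probe sets of the array, which read the 3' end, middle and 5' end, gave −0.06, −0.14 and −0.14. PGK1, PGAM1, ENO1 and TPI1 had both YM155 arrays between the untreated arrays, as had 8 of the 30 members and 23.3% of all genes. PKM, pyruvate kinase, read 10.66 and 11.08 in the untreated and 10.91 and 10.56 in YM155 arrays. Its dimmer probe set read 7.53 in untreated replicate 2 and between 6.24 and 6.30 on the other 3 arrays. ALDOC, the brain-type aldolase, read 4.35 and 4.86 in the untreated and 4.30 and 4.40 in YM155 arrays, so its difference of −0.25 ± 0.21 (SE) came from untreated replicate 2.

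ENO2, the neuronal-type enolase, had the largest difference among the members, and its size turned on a single array. It read 6.47 in untreated replicate 1, 8.40 in untreated replicate 2, and 6.27 and 6.09 in the YM155 arrays. The YM155 arrays were below both untreated arrays, but only untreated replicate 2 was far from the other 3. The difference was −1.25 ± 0.64 log2 (SE; 95% interval −2.94 to 0.44; limma adjusted p = 0.508), at −0.29 against untreated replicate 1 and −2.21 against replicate 2. The ENO2 promoter (RefSeq, GRCh38.p14, chr12:6914330-6914629, plus strand) is shown, in the same window, because ENO2 was the member most raised in untreated replicate 2 after SLC2A3; it holds an ACGTG core, in capitals.
ENO2: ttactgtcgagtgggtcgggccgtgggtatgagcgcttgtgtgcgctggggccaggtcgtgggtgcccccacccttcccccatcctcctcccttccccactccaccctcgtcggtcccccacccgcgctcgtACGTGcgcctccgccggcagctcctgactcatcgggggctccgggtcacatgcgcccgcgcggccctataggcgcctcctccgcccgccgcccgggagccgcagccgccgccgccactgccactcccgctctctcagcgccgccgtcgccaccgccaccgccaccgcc

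Without untreated replicate 1, limma called ENO2 (−2.21, adjusted p = 0.0407) and SLC2A3 (−0.92, adjusted p = 0.0494) lower and no member higher, beside 3.71% of all genes lower and 4.3% higher. Without any other array, 0 members and 0% of all genes were called, and the lowest adjusted p of a member was 0.093. The fit without untreated replicate 1 has a lone untreated array, assumed to vary like the YM155 arrays, and takes its variance from the YM155 group.

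Lactate dehydrogenase interconverts pyruvate and lactate. LDHA, the subunit that favours lactate, read 12.61 and 13.02 in the untreated and 12.75 and 12.76 in YM155 arrays, and LDHB, the subunit typical of oxidative tissue, 13.08 and 13.00 in the untreated and 13.03 and 12.89 in YM155 arrays. The groups overlapped for both. The 95% interval of the difference was −0.53 to 0.41 for LDHA and −0.42 to 0.27 for LDHB.

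At the entry to mitochondria, the clearest lower values belonged to PDP1, the phosphatase subunit that switches pyruvate dehydrogenase on. PDP1 read 10.77 and 10.53 in untreated arrays and 10.00 and 10.05 in YM155 arrays. A second probe set read 8.17 and 8.12 in the untreated and 7.57 and 7.14 in YM155 arrays, so in both probe sets the YM155 arrays were below both untreated arrays. The differences were −0.62 ± 0.14 log2 (SE; 95% interval −1.0 to −0.24; limma adjusted p = 0.246) and −0.79. In its brightest probe set PDP1 stood at −0.74 against untreated replicate 1 and −0.50 against replicate 2. It was the only 1 of the 30 members at least 0.5 log2 below each untreated array, a share near the 3.34% of all genes. PFKFB4, at −0.46 against replicate 1, was just short of this distance, which was chosen after the values were seen.

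The 3 PDK genes tested, whose kinases switch the complex off, had negative differences, none past the threshold. PDK1, the HIF-responsive kinase, read 8.09 and 8.83 in the untreated and 7.93 and 8.09 in YM155 arrays (−0.45 ± 0.27 SE; limma adjusted p = 0.573). In this brightest probe set YM155 replicate 2 was level with untreated replicate 1, so most of the distance was to untreated replicate 2 (−0.82, against −0.08 from untreated replicate 1). The second brightest PDK1 probe set gave −0.63 without overlap, reading 5.39 and 5.93 in the untreated and 5.31 and 4.74 in YM155 arrays. The dimmest gave −0.23, with overlap. PDK3 read 7.02 and 7.34 in the untreated and 6.87 and 6.70 in YM155 arrays (−0.40 ± 0.17 SE; limma adjusted p = 0.433). Its 5 probe sets all had negative differences, from −0.59 to −0.06, and in the second brightest untreated replicate 2 read 6.92 while the other arrays read between 5.51 and 5.64. PDK2 read 6.56 and 6.16 in the untreated and 6.08 and 6.18 in YM155 arrays, with overlap. PDK4, the kinase induced by fasting, lay below the limit in all 3 of its probe sets, at means of 1.76 to 2.75 log2, and was not tested.

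The catalytic subunit genes PDHA1 and PDHB stood slightly lower in their brightest probe sets, at −0.21 ± 0.14 and −0.21 ± 0.14 (SE), each without overlap of the arrays. PDHB read 11.09 and 10.94 in the untreated and 10.85 and 10.75 in YM155 arrays, and its second probe set gave −0.34. For PDHA1 the probe sets went both ways, at −0.02 and 0.31 in the other 2. The mitochondrial pyruvate carrier subunits differed in spread: MPC2 read between 9.76 and 9.83 on all 4 arrays, while MPC1 read 8.86 and 8.07 in the untreated and 8.67 and 8.75 in YM155 arrays (0.24 ± 0.29 SE; limma adjusted p = 0.778).

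**Figure D3:**
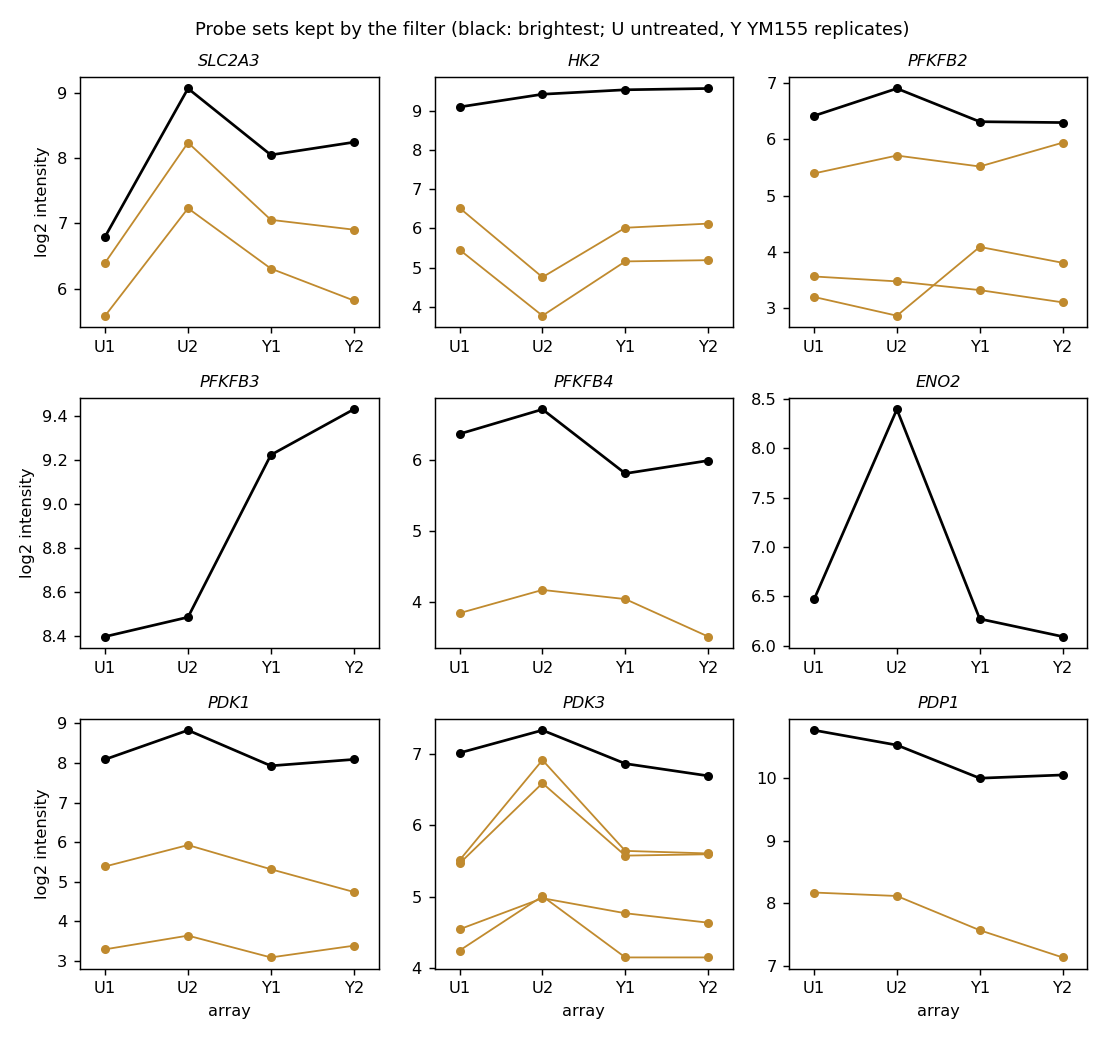
Each panel gives the log2 intensity (vertical axis) of every probe set of a gene above the limit on the 4 arrays (horizontal axis: U1 and U2, untreated replicates 1 and 2; Y1 and Y2, YM155 replicates 1 and 2); black is the brightest probe set, ochre the others, and lines only join the values of a probe set. Both PDP1 probe sets are lower on both YM155 arrays, those of SLC2A3 peak in untreated replicate 2, and the dimmer HK2 probe sets have their lowest values there.

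Across the probe sets, 20 members had 2 or more above the limit. In 13 of these all probe sets had the same sign of difference, and in 7 they had both signs. Of the 67 member probe sets above the limit, 49 had negative and 18 positive differences. The share of negative differences among all probe sets above the limit is not given here. Probe sets of the same gene read the same gene again, so these counts are not independent of the counts by gene. Both YM155 arrays lay above both untreated arrays in 7 of the 67 and below them in 21, against 19.4% and 23.9% of all probe sets above the limit. The 7 included the PFKFB2 probe set with untreated readings below the limit, and the 21 the dimmest PFKFB2 probe set, near the limit.

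The members also differed between the 2 untreated arrays. Untreated replicate 2 was above untreated replicate 1 for 22 of 30 members, against 44.9% of all genes, with a median of 0.29 log2 in the members and −0.04 in all genes. It was at least 2-fold higher for SLC2A3 (2.27 log2) and ENO2 (1.93) and at least 2-fold lower for 0 members, against 1.5% of all genes higher and 2.89% lower. Of the 67 probe sets, 7 were at least 2-fold higher and 2, both of HK2, at least 2-fold lower, against 2.57% and 2.58% of all probe sets above the limit. The 7 came only from SLC2A3, PDK3, ENO2 and PKM, with repeated probe sets of SLC2A3 and PDK3. The median difference of the members was −0.07 from untreated replicate 1, with 19 of 30 negative against 58.2% of all genes, and −0.26 from untreated replicate 2, with 24 negative against 49% of all genes. The YM155 mean lay on the same side of both untreated arrays for 19 of 30 members, against 62.5% of all genes, a share near that of all genes. In the plot against each untreated array, PFKFB3, PDP1 and PFKFB4 lie near the diagonal and ENO2 and SLC2A3 far from it.

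**Figure D4:**
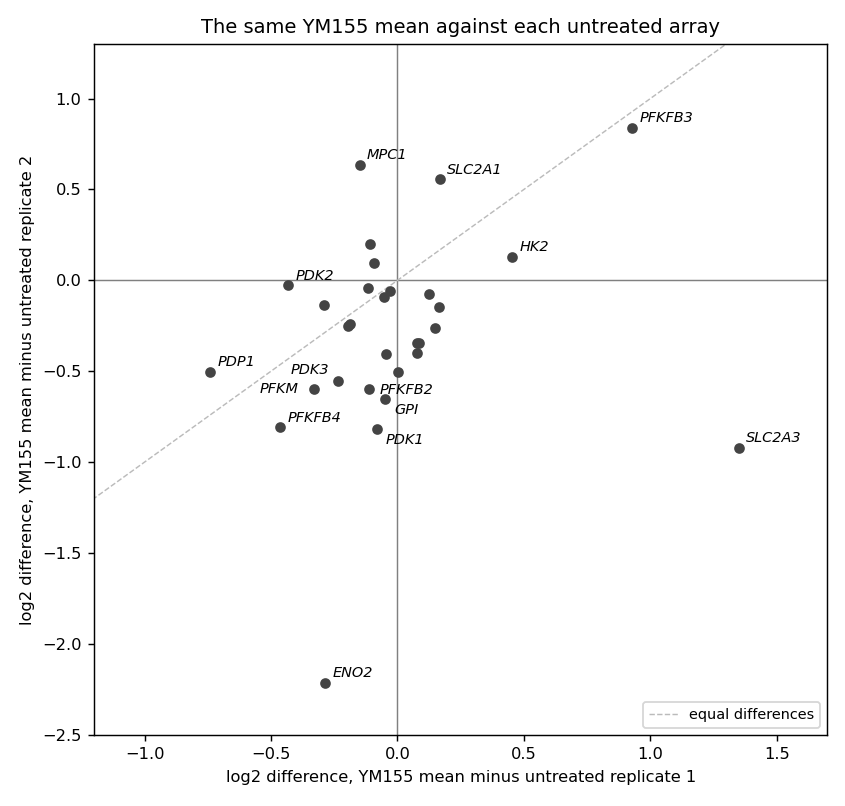
Each point is a gene, placed by the log2 difference of the YM155 mean from untreated replicate 1 (horizontal axis) and from untreated replicate 2 (vertical axis); the dashed line marks equal differences. PFKFB3 lies at 0.93 and 0.84 and PDP1 at −0.74 and −0.50, while ENO2 lies at −0.29 and −2.21 and SLC2A3 at 1.35 and −0.92.

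Genes that HIF controls outside glycolysis also differed between the untreated arrays. Of 24 such genes, 22 were tested. Untreated replicate 2 was above replicate 1 for 15 of them, against 44.9% of all genes, with a median of 0.68 log2. The largest rises were in NDRG1 (3.41), ANKRD37 (3.09), HILPDA (3.09), BNIP3 (2.11) and ADM (2.10). STC2 and VEGFA, also on that list, went the other way, at −2.26 and −0.98. EGLN1 (−0.16), EGLN3 (−0.13), ANGPTL4 (−0.13), CA12 (−0.09) and RORA (−0.01) were not raised either. The genes of this comparison were named after their values were seen. The HIF target list had a median difference between YM155 and untreated of −0.35, at −0.03 from untreated replicate 1 and −0.75 from untreated replicate 2, with 16 negative and 6 positive. The part of this gap between the untreated arrays in the member differences was not tested. The list members with the largest differences without overlap were DDIT4 (−2.52 ± 0.23 SE), a stress-induced inhibitor of mTORC1, CITED2 (2.30 ± 0.21), a transcriptional coregulator that competes with HIF for its coactivator, and HILPDA (−2.03 ± 1.02), a lipid droplet protein. By limma 0 of the 22 passed after adjustment, and 2 were higher and 1 lower at an unadjusted p under 0.05, beside the same shares of all genes, 5.23% and 7.48%.

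Regulators of glycolytic genes went both ways. Of 22, 19 were tested, with a median of −0.02, 9 positive and 10 negative, and 0 passed after limma's adjustment. At an unadjusted limma p under 0.05, 4 were higher and 5 lower, beside the 5.23% and 7.48% of all genes. The lower ones were SP1 (−0.81 ± 0.26 SE), STK11 (−0.57 ± 0.12), ARNT (−0.52 ± 0.14), HIF1A (−0.41 ± 0.13) and MLXIPL (−0.41 ± 0.12). The higher ones were ARRDC4 (0.80 ± 0.16 SE) and the 3 that follow. MYC, which activates glycolytic genes, read 8.30 and 9.13 in the untreated and 10.35 and 9.84 in YM155 arrays (1.38 ± 0.34 SE; limma adjusted p = 0.261). PPARD, a nuclear receptor of fat metabolism, stood at 1.16 ± 0.35 (SE). TIGAR, a phosphatase that removes the same activator that PFKFB3 makes, read 8.02 and 7.60 in the untreated and 8.95 and 8.77 in YM155 arrays (1.05 ± 0.19 SE; limma adjusted p = 0.2). MYC, PPARD and TIGAR were named for the largest differences without overlap, so their lack of overlap was set by that choice. In the whole list, 5 of the 19 regulators were higher without overlap of the groups and 8 were lower. The shares among all genes were 19.3% and 25.6%.

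Other carbohydrate genes lay closer to 0 in median than the members, with both untreated arrays in the fit. The other genes of glycolysis, sugar and lactate transport and pyruvate dehydrogenase (23 of 34 tested) had a median of −0.01. From untreated replicate 1 that median was −0.08, against −0.07 for the members. From untreated replicate 2 it was 0.04, against −0.26. The distance of the members from this list therefore rested on untreated replicate 2. The pentose phosphate and glycogen lists below had medians of 0.05 and −0.04 from untreated replicate 1, and 0.09 and 0.01 from replicate 2. At an unadjusted limma p under 0.05, 0 of the 23 were higher and 2 lower, beside 5.23% and 7.48% of all genes. The lower ones were BPGM, which makes the bisphosphoglycerate of red cells (−0.72 ± 0.15 SE), and SLC2A12, a glucose transporter (−0.63 ± 0.12). BSG, the chaperone of lactate transporters, followed at −0.37 ± 0.19 (SE). The pentose phosphate pathway (11 of 12 tested) had a median of 0.08 and no gene past an unadjusted p of 0.05 by limma; TKT, transketolase, stood at −0.25 ± 0.16 (SE), H6PD, an enzyme of the endoplasmic reticulum, at 0.24 ± 0.17 and RPIA, ribose phosphate isomerase, at 0.16 ± 0.15. The list of glycogen, gluconeogenesis and hexose genes (21 of 26 tested) had a median of −0.01. At an unadjusted limma p under 0.05, 0 of its genes were higher and 1 lower, beside 5.23% and 7.48% of all genes. The lower gene was PGM2L1, a sugar phosphate synthase, which read 6.81 and 7.71 in the untreated and 6.25 and 6.15 in YM155 arrays. MPI, which links fructose and mannose phosphates, stood at −0.36 ± 0.14 (SE) and FBP2, a fructose bisphosphatase with dim signal, at 0.25 ± 0.17.

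Genes of the tricarboxylic acid cycle (18 of 21 tested) had a median of −0.06, with 7 positive and 11 negative. SUCLG2, a subunit of succinyl-CoA ligase, stood at 0.40 ± 0.14 (SE). It was the only gene of that list at an unadjusted limma p under 0.05, in the higher direction, beside 5.23% of all genes higher. SUCLA2, the alternative to SUCLG2 for the other nucleotide, stood at 0.31 ± 0.14 and ACLY, which makes cytosolic acetyl-CoA from citrate, at 0.31 ± 0.12. By limma 0 genes of these 4 lists passed after adjustment. In the plot by gene list, the HIF targets have the widest spread.

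**Figure D5:**
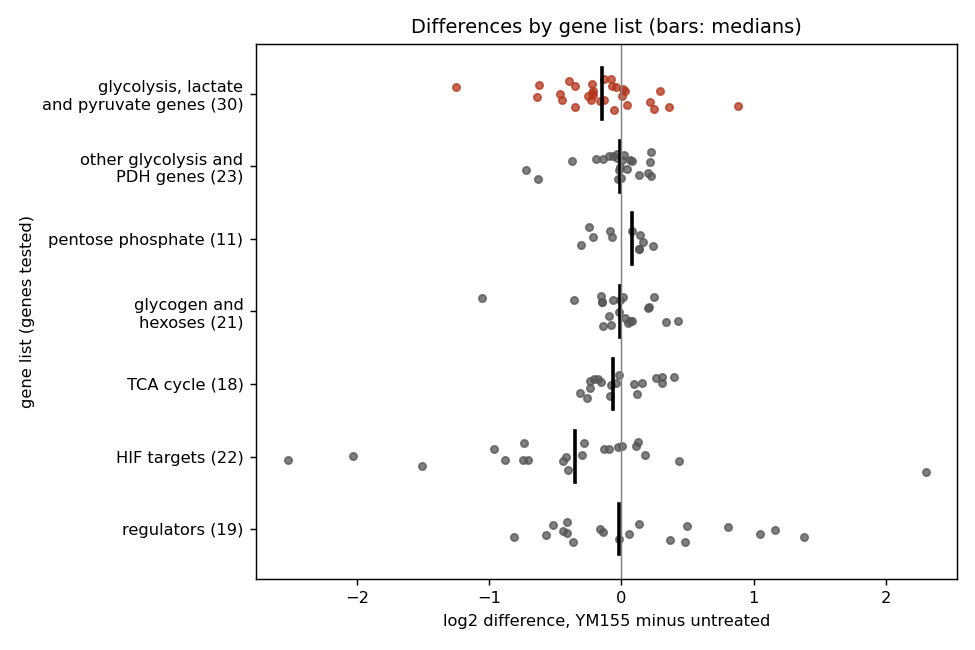
Each point is a gene's log2 difference (horizontal axis, YM155 minus untreated) in the list on the vertical axis, with the number of genes tested in brackets; black bars are medians and vertical scatter within a list has no meaning. The median is −0.15 for the glycolysis, lactate and pyruvate genes, −0.35 for HIF targets and between −0.06 and 0.08 for the other lists.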

How the data were processed

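The authors summarised the arrays with RMA (robust multi-array averaging), per the submitters' processing notes, and deposited an intensity for every probe set on each array; the sources used here give no version, settings or genome build. These intensities were linear, from 2.42 to 15214, and were converted to log2. RMA brings the arrays to a common distribution, so a shift shared by all genes is not measured. Of 54675 probe sets, 62 controls were left out of the fit, and those with a mean below the 40th percentile (3.32 log2) were removed, leaving 32768. Symbols came from the platform annotation; 41091 probe sets outside the controls had 1 symbol, 1801 several and 11721 none. Each gene was represented by its brightest probe set, which gave 14043 genes. YM155 and untreated arrays were compared with limma 3.58.1 (R 4.3.3; lmFit, eBayes, two-sided, no covariates). Its p-values were adjusted over the 14043 genes by Benjamini-Hochberg and held to 0.05. The number of arrays, with 2 residual degrees of freedom per gene, limits the precision. Further probe sets come from a fit over all probe sets outside the controls. All 33 members are named. Of each other pathway list, up to 3 genes with the largest differences without overlap are named. Further HIF targets and regulators were named after their values were seen. The members and lists were chosen with earlier results of these data known. Alternatives were other filters, probe set choices, normalizations and variance models, the replicate number as a block and each array left out. The fit was tested on simulated data.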

Additional observations from a re-analysis of the deposited data

How the results depend on the processing

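The number of arrays, 2 per group, limits the precision, and no calls of presence or absence entered the tests. The counts of genes and members called were 0 in each direction under the other filters, probe set choices, normalizations and variance model and with all probe sets tested; leaving out each array gave 0 to 604 genes higher, 0 to 521 lower and 0 to 2 members lower, the highest counts without untreated replicate 1. With the replicate number as a block 0 genes were called and the median of the members was −0.15; the labels do not say that the numbers pair the arrays, and the replicate differences of the groups correlated at 0.00036 over genes. The median of the members ran from −0.26 to −0.067 over the left-out arrays. Of 388 alternative values for single members, 354 kept their direction and stayed short of the threshold, 1 passed it in the same direction (ENO2 without untreated replicate 1) and 33 changed sign. Averaging the probe sets of each gene turned SLC2A3 to −0.16, PFKL to −0.064, PFKFB2 to 0.11, TPI1 to −0.12 and PDHA1 to 0.026; without _x_at and _s_at probe sets TPI1 was −0.30 and PDHA1 0.31; a further quantile normalization turned ENO1 to −0.0036. Single further probe sets had the other sign for SLC2A3 (−0.34 and −0.35), PFKL (−0.13), PFKFB2 (0.18 and 0.91), TPI1 (−0.078 and −0.30), PGK1 (0.13), ENO1 (−0.16), PDHA1 (0.31) and MPC1 (−0.27, below the limit). The PFKFB2 value of 0.91 came from a probe set with untreated readings below the limit. The left-out arrays turned the sign of 11 members: SLC2A3 (−0.92 to 1.35), PFKL (−0.099 to 0.10), PFKP (−0.11 to 0.20), ALDOC (−0.51 to 0.00083), TPI1 (−0.076 to 0.12), PGK1 (−0.34 to 0.086), PGAM1 (−0.40 to 0.077), ENO1 (−0.15 to 0.16), PKM (−0.35 to 0.079), LDHA (−0.26 to 0.15) and MPC1 (−0.15 to 0.64). The cause was not tested.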
